A study of Mus musculus with 2 samples.

Results

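The 6 microRNA genes Mir142, Mir223, Mir150, Mir155, Mir146 and Mir146b, known from white blood cells, were examined in heart tissue of female F1 hybrid mice of the strain B6CASTF1/J. They were chosen by gene name out of 2202 microRNA genes in the deposited tables, and all 6 were found. The animals were 14 days old, and no allele, agent or treatment is named in the labels. There was 1 group with 2 biological replicates, so no condition was compared, and the 2 libraries of RNA under 30 bases were set side by side. The biosample text of replicate 1 speaks of 3 females, the text of replicate 2 of 1 female, and pooling is not mentioned. Another label gives the age in months, and the 14 days of the age field were used.

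MicroRNAs are cut from the arms of a hairpin precursor, and the short mature strand pairs with messenger RNAs mainly through its seed, bases 2 to 8. Several microRNAs are strongly linked to blood cells. The miR-142 hairpin is expressed across the blood cell lineages, miR-223 in granulocytes and other myeloid cells, and miR-150 in mature lymphocytes. miR-155 and miR-146a are induced when immune cells are activated, with miR-146a acting as a brake on inflammatory signalling. A whole heart holds resident macrophages, other white cells and blood beside its muscle, vessel and connective tissue cells, and miR-155 and miR-146a are also made by other cell types such as endothelial cells. In whole tissue, fewer cells of a type and less RNA per cell cannot be told apart.

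The mature sequences show what the reads of each gene can hold. They are given 5′ to 3′ from RefSeq on the build GRCm38.p6, with the seed in capitals. Of the 6 genes and Mir142b, which lies opposite Mir142, 12 mature sequences were matched. The 5p arm of miR-150 is named only, because its sequence was missing from the reference, and its seed was not compared. Shown are both arms of miR-142 and the RNA annotated opposite it, the 3p arms of miR-223 and miR-150, and the 5p arms of miR-155, miR-146a and miR-146b.
miR-142a-5p: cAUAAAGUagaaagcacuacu
miR-142a-3p: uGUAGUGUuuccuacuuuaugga
miR-142b: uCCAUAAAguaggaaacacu
miR-223-3p: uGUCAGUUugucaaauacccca
miR-150-3p: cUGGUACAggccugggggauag
miR-155-5p: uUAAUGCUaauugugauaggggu
miR-146a-5p: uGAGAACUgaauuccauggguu
miR-146b-5p: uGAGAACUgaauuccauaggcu
The seed GAGAACU of miR-146a-5p was shared with miR-146b-5p alone among 1679 mature names in the table. For 10 of the 12 matched sequences no other name had the same seed.

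The pair of miR-146 arms is nearly the same RNA. With the bases that differ in capitals, the pair reads as follows.
miR-146a-5p: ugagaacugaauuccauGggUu
miR-146b-5p: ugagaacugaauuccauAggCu
The first 17 of 22 bases are identical. The 2 differences, G18A and U21C, give the base of miR-146a-5p, the position from the 5′ end and the base of miR-146b-5p. The hairpins of Mir146 and Mir146b share a stretch of 21 bases. A read that ends before position 18 cannot be assigned to either gene, and reads mapping to several places were counted for no gene. Such reads made up 41.1% of the library of replicate 1 and 39.9% of that of replicate 2, and how many of them belong to Mir146 or Mir146b was not tested. The hairpins of Mir142, Mir223 and Mir155 share at most 13, 12 and 10 bases with another hairpin in the table. No hairpin of Mir150 was available, so its shared stretches were not searched.

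The genes lie at separate places in the genome, given here on mm10 with GENCODE M21. Mir142 (ENSMUSG00000105196.1) lies at chr11:87756864-87756927 on the plus strand, within an intron of the long noncoding RNA gene Mir142hg. Mir142b (ENSMUSG00000065420.2, chr11:87756841-87756955, minus strand) covers it on the other strand. Mir223 (ENSMUSG00000076066.1, chrX:96242817-96242926, plus strand) overlaps an annotated exon of the noncoding gene F630028O10Rik. Mir155 (ENSMUSG00000065397.1, chr16:84714140-84714204, plus strand) lies in an exon of the noncoding gene Mir155hg. Mir150 (ENSMUSG00000065495.1, chr7:45121757-45121821, plus strand) overlaps no other annotated gene. Mir146 (ENSMUSG00000065601.1, chr11:43374397-43374461, minus strand) overlaps no other gene, and its nearest protein-coding gene, Pttg1, lies 45789 bases away. Mir146b (ENSMUSG00000070127.2, chr19:46342762-46342870, plus strand) lies in an intron of Mfsd13a on the same strand.

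Replicate 1 held 12701590 reads and replicate 2 held 7126319, and 5237062 and 3026501 of these were assigned to the own strand of microRNA genes. Levels are counts scaled to 1000000 of these reads (CPM), not divided by length, since a read stands for a mature RNA and not for a hairpin. Detected means 10 or more reads in each library. The heart microRNAs Mir208a, Mir208b and Mir499, hosted by myosin genes, were detected in both libraries and together took 0.517% and 0.341% of counted reads. This share covers these 3 genes only and not every microRNA of heart muscle. Mir1a-2 had 110 and 101 reads, Mir1a-1 4 and 6, Mir133a-1 16 and 12, and Mir133a-2 7 and 1. How many reads of the Mir1a and Mir133a genes were left out as multiply mapped was not tested. Values with an SD are means over 2 libraries, so each SD rests on 1 difference. Intervals are exact 95% Clopper-Pearson intervals on read counts, so they cover counting error only. Where reads carry no molecular identifier, several may be copies of 1 molecule, which the intervals do not allow for.

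Of the 6 genes, 5 were detected, and the order of their levels was the same in both libraries. Mir155 stood highest, followed by Mir146, Mir150, Mir142 and Mir223, while Mir146b was almost absent from the counts. The 6 genes together took 20191 reads or 0.386% of counted reads in replicate 1 (interval 0.380 to 0.391). In replicate 2 they took 12573 reads or 0.415% (0.408 to 0.423). The mean share was 0.4005% ± 0.0211 (SD, n = 2).

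**Figure D1:**
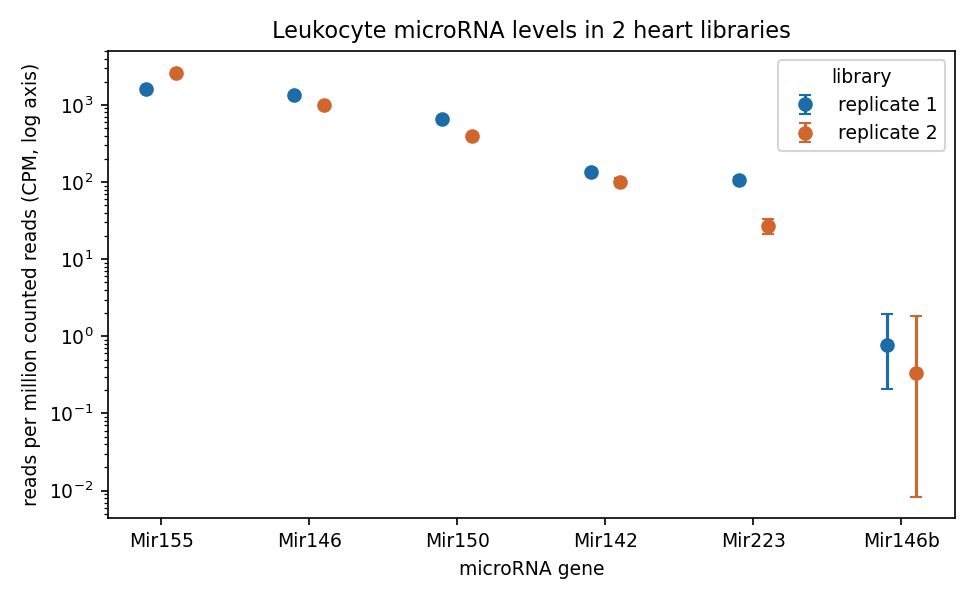
CPM on a log axis for each of the 6 genes, with 1 point for each library and bars for the exact 95% counting interval. Mir155 is highest and Mir146b lowest in both libraries, and Mir155 is the only detected gene with its higher point in replicate 2.

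Mir155, induced in activated immune cells and also made by other cell types, had 8332 reads in replicate 1 and 7925 in replicate 2. Its level was 1591 CPM (1557 to 1625) and 2619 CPM (2561 to 2677), with a mean of 2105 ± 727 CPM (SD, n = 2). The gene ranked 53rd in replicate 1 and 40th in replicate 2 among all 2202 genes. It was the only one of the detected 5 whose CPM was higher in replicate 2.

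Mir146, the gene of miR-146a, had 7152 and 3063 reads. These correspond to 1366 CPM (1334 to 1398) in replicate 1 and 1012 CPM (977 to 1049) in replicate 2, with a mean of 1189 ± 250 CPM (SD, n = 2). Its rank was 62 and 68. Mir146b, whose 5p arm has the same seed, had 4 reads in replicate 1 and 1 read in replicate 2, below the minimum of 10. Of the reads of both genes, Mir146b held 0.0559% (0.0152 to 0.143) in replicate 1 and 0.0326% (0.000826 to 0.182) in replicate 2. Because their hairpins share 21 bases and reads with several mapping places are left out, the counts of both genes are uncertain. Counts are per gene and do not separate the 5p from the 3p arm.

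Mir150, abundant in mature B and T cells, had 3450 and 1195 reads. Its level was 659 CPM (637 to 681) in replicate 1 and 395 CPM (373 to 418) in replicate 2, with a mean of 527 ± 187 CPM (SD, n = 2). It was higher in replicate 1, and its lower value lay above both values of Mir142.

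Mir142, the broad marker of blood cells, had 698 and 307 reads. Its level was 133 CPM (124 to 144) in replicate 1 and 101 CPM (90.4 to 113) in replicate 2, with a mean of 117 ± 22.5 CPM (SD, n = 2). It ranked 147th and 150th of all genes. Both values of Mir142 lay below all values of Mir155, Mir146 and Mir150.

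Mir223, the myeloid member, had 555 reads in replicate 1 and 82 in replicate 2. Its level was 106 CPM (97.3 to 115) and 27.1 CPM (21.5 to 33.6), with a mean of 66.5 ± 55.8 CPM (SD, n = 2). The SD was close to the mean, and the rank was 159 in replicate 1 and 215 in replicate 2. In both libraries Mir223 was the lowest of the detected genes.

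Over the 2 libraries the ranges of neighbouring genes in the order did not overlap for Mir155 and Mir146, for Mir146 and Mir150, or for Mir150 and Mir142. The gap between Mir155 (lowest value 1591 CPM) and Mir146 (highest value 1366 CPM) was the narrowest of these. Any reads of Mir146 that mapped to several places are missing from its level. The ranges of Mir142 and Mir223 overlapped, since Mir223 in replicate 1 (106 CPM) lay above Mir142 in replicate 2 (101 CPM). With 2 libraries no test of this order can pass 0.05, and none was run.

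The counts of Mir142 depended on the strand column used. The miR-142b sequence is the reverse complement of bases 4 to 23 of miR-142a-3p, and the annotated hairpins overlap on opposite strands. In the Mir142 hairpin, printed with both mature arms in capitals, the 3p arm is the stretch that miR-142b mirrors.
Mir142 hairpin: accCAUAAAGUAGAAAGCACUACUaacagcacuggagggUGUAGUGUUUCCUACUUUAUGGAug
In the unstranded column Mir142 and Mir142b had 0 reads in both libraries, where reads over 2 genes are set aside as ambiguous. On the own strand Mir142 had all 698 and 307 reads and Mir142b had 0 in both, and at a floor of 3 reads a 0 leaves room for 0.573 CPM in replicate 1 or 0.991 CPM in replicate 2. The uniquely mapped reads counted at this locus thus all lay on the Mir142 strand. None of the other members had its counts changed by more than 1 read between the columns.

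The make-up of the reads of the 6 genes differed between the libraries, and which cells made these reads was not tested. Mir155 took 41.3% of the reads of the 6 genes in replicate 1 (40.6 to 41.9) and 63.0% in replicate 2 (62.2 to 63.9). Mir146 took 35.4% (34.8 to 36.1) and 24.4% (23.6 to 25.1). Mir150 took 17.1% (16.6 to 17.6) in replicate 1 and 9.50% (8.997 to 10.03) in replicate 2. Mir142 took 3.46% and 2.44%, and Mir223 took 2.75% and 0.652%. The intervals of the 2 libraries did not overlap for any of these 5 genes, but they cover counting error only. The share of all genes with such intervals was not computed. In the test on counting error given below, 76.8% of the 263 genes whose reads summed to 100 or more were called. The shares are parts of the same sum, so a larger share of Mir155 leaves less for the others.

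**Figure D2:**
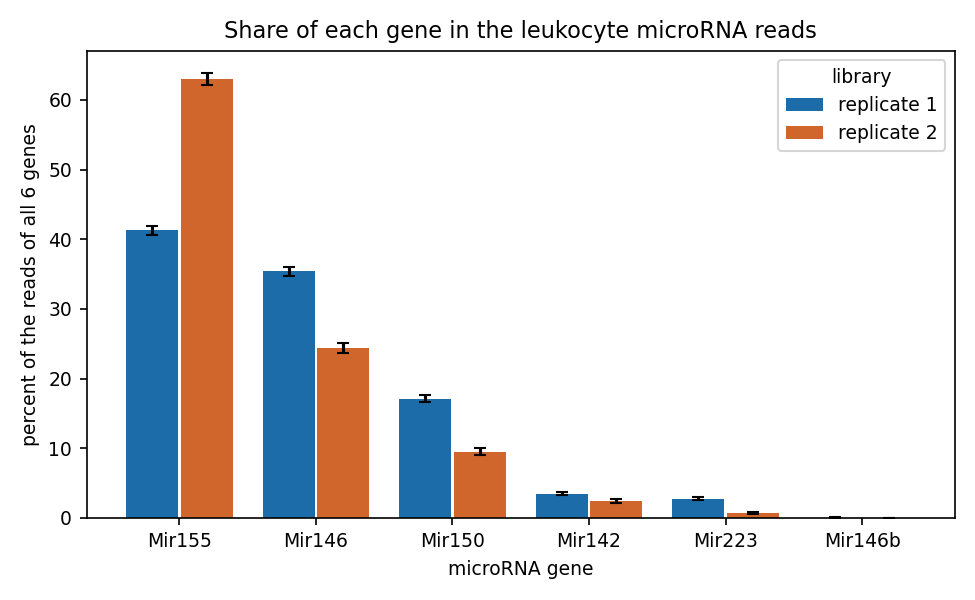
Percent of the summed reads of the 6 genes taken by each gene, in bars for each library with exact 95% counting intervals. Mir155 takes 41.3% in replicate 1 and 63.0% in replicate 2, and the other detected genes have the smaller bar in replicate 2.

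Ratios of reads within a library do not depend on how the libraries are scaled. Like the order of levels, they compare reads and not molecules, and whether different microRNAs were captured equally was not tested. There were 11.9 reads of Mir155 for each read of Mir142 in replicate 1 and 25.8 in replicate 2 (18.9 ± 9.81, SD, n = 2). Mir146 had 10.2 and 9.98 reads for each read of Mir142 (10.1 ± 0.190, SD, n = 2), so this ratio was nearly equal in the 2 libraries. Mir150 had 4.94 and 3.89 reads for each read of Mir142. Mir155 had 15.0 reads for each read of Mir223 in replicate 1 and 96.6 in replicate 2. Mir142 had 1.26 and 3.74 reads for each read of Mir223. Among the pairs of detected genes, the ratio of Mir146 to Mir142 differed least between libraries, by 1.03-fold, and that of Mir155 to Mir223 most, by 6.44-fold.

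Differences between the libraries were tested for each of the 430 genes whose reads summed to 10 or more, with a two-sided exact binomial test on TMM-scaled libraries and Benjamini-Hochberg adjustment. The test compares these 2 libraries beyond counting error and not conditions. It called 4 of the 5 tested leukocyte genes higher and 1 lower in replicate 1. Among all genes, 55.3% were called, 27.9% higher and 27.4% lower. Among the 263 genes whose reads summed to 100 or more, 76.8% were called, so a call was common at the depth of these genes. Mir146b was not tested. The median log2 difference of the 5 genes, replicate 1 minus replicate 2, was 0.30, beside -0.05 over all genes tested.

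Mir223 had the largest difference of the 5 genes, 3.55-fold higher in replicate 1 (log2 difference 1.83, counting interval 1.497 to 2.19, binomial adjusted p = 1.73e-34). Of 226 genes averaging 100 or more reads, it ranked 8th from the highest. Mir150 was 1.52-fold higher in replicate 1 (log2 0.60, 0.51 to 0.70, binomial adjusted p = 4.69e-37). Mir146 was 1.23-fold higher (log2 0.30, 0.24 to 0.36, binomial adjusted p = 1.69e-21). Mir142 was 1.20-fold higher (log2 0.26, 0.06 to 0.46, binomial adjusted p = 0.0175). Mir155 was 1.81-fold lower in replicate 1 (log2 -0.85, -0.90 to -0.81, binomial adjusted p = 1.31e-303) and ranked 14th from the lowest of the 226 genes. All 5 were called in the same direction with total counts, where 55.8% of all genes were called, and with DESeq2 size factors, where the share was again 55.3%. Such rescaling moves every log2 difference by the same amount, here less than the smallest of the 5, so no direction could change.

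**Figure D3:**
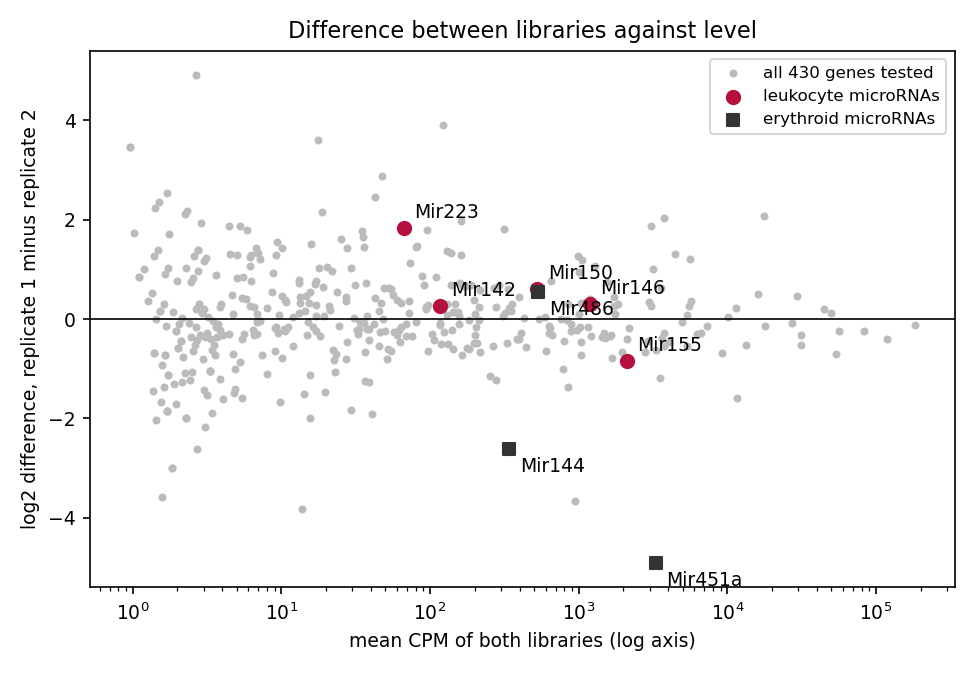
Log2 difference between the libraries (replicate 1 minus replicate 2, TMM-scaled) against mean CPM on a log axis for all 430 genes tested, with leukocyte genes as red circles and erythroid genes as black squares. Mir223 lies at 1.83 and Mir155 at -0.85, while Mir451a lies at -4.91.

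Fewer of the 5 differences were called when a spread between samples was allowed for, and those of Mir142 and Mir146 lost their call first. When the biological coefficient of variation was fixed at 0.1 in edgeR's exact test, Mir223 (adjusted p = 7.10e-11), Mir155 (0.000323) and Mir150 (0.0189) were called, against 28.6% of all genes, 15.6% higher and 13% lower. At 0.4, edgeR's exact test called 0 of the 5, with 1 at an unadjusted p under 0.05 and an adjusted p of 0.669 for Mir223, against 1.16% of all genes. The spread that edgeR estimated over 430 genes was 0.424, but it comes from the difference between the same 2 libraries, so few calls at 0.4 follow from how that value was made.

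The 3 genes listed as erythroid were called in different directions, 2 lower and 1 higher in replicate 1. Over all genes tested, 27.4% were called lower and 27.9% higher. Mir451a, the most abundant microRNA of the erythroid lineage, had 1223 reads in replicate 1 and 19348 in replicate 2, a level of 234 and 6393 CPM. Mir144 of the same cluster had 541 and 1753 reads, or 103 and 579 CPM, and was lower in replicate 1 as well. Mir486, the third gene of this list, had 658 CPM in replicate 1 and 410 CPM in replicate 2 and was higher in replicate 1. Whether its reads came from red cells was not tested. With edgeR's exact test at 0.4, only Mir451a of the 3 was called, against 1.16% of all genes, with an adjusted p of 0.166 for Mir144 and 1 for Mir486. The 3 genes together took 0.0995% of counted reads in replicate 1 and 0.738% in replicate 2, and all 3 were detected in both. Mir126a, of endothelial cells and platelets, stood at 42911 and 63991 CPM and was 1.64-fold lower in replicate 1 by the binomial test. Of the smooth muscle pair, Mir143 was 1.24-fold lower and Mir145a 1.26-fold higher in replicate 1. Of the heart muscle genes, Mir208a was 1.93-fold and Mir499 1.28-fold higher in replicate 1, and Mir208b (log2 0.06) was not called with TMM but was called higher with total counts (log2 0.19). The part of blood, vessel or muscle cells in the differences of the leukocyte genes was not tested.

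For each detected member, the gene nearest in log2(CPM + 1) over the 2 libraries was sought among the 334 other detected genes. Mir486 was nearest to Mir150 (distance 0.0555 on the log2 scale), with 3446 and 1242 reads against 3450 and 1195. Mir106b was nearest to Mir146 (distance 0.0725), with 7356 and 2938 reads. Mir361 was nearest to Mir155 (0.174), at 1602 and 2322 CPM, Mir669c to Mir142 (0.200), at 149 and 110 CPM, and Mir92b to Mir223 (0.584), at 123 and 39.98 CPM. These distances rest on 2 libraries and describe levels only.

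A second list held 22 other microRNA genes studied in blood and immune cells, all of them in the tables, of which 18 were detected and 19 tested. In replicate 1, 6 were called higher and 5 lower, and 8 were not called, beside 27.9% higher and 27.4% lower over all genes. The median log2 difference was 0.06, beside -0.05 over all genes tested. With total counts, 7 were higher and 5 lower, since Mir18 gained a call (log2 0.20, binomial adjusted p = 0.0364), beside 33.5% higher and 22.3% lower over all genes. With edgeR's exact test at 0.1, 3 were higher and 3 lower, beside 15.6% and 13% over all genes. At 0.4 edgeR's exact test called 0 of the 19, against 1.16% of all genes. At an unadjusted p under 0.05 there was 1 of the 19, against 27 of the 430 genes tested.

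Mir342, a microRNA of lymphoid and myeloid cells hosted by Evl, was close to equal in the libraries, with 1905 CPM in replicate 1 and 1615 CPM in replicate 2. Its log2 difference of 0.10 was called higher in replicate 1, a call lost with edgeR's exact test at 0.1 (adjusted p = 0.765). Mir342 thus stood above Mir146 and both Mir150 and Mir142 in mean CPM (1760 ± 205, SD, n = 2). Mir511, hosted by the macrophage mannose receptor gene Mrc1, had 54 and 41 reads, or 10.3 and 13.5 CPM, and its log2 difference of -0.53 was not called (binomial adjusted p = 0.154). Mir147, induced in activated macrophages, had 9 reads in replicate 1 and 0 in replicate 2.

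Among genes induced in activated immune cells and in many other cells, Mir21a was 3.66-fold higher in replicate 1 (4926 and 1225 CPM) and Mir132 was 1.70-fold higher (845 and 452 CPM). Mir212, the cluster partner of Mir132, had 84 and 32 reads and its log2 difference of 0.45 was not called. Mir125a, studied in blood stem cells among others, was 2.30-fold higher in replicate 1 (8020 and 3171 CPM). Mir222 was 1.40-fold higher (68.4 and 44.3 CPM) and its cluster partner Mir221 was 1.24-fold lower (1539 and 1740 CPM). Mir10a was 1.38-fold lower in replicate 1 (916 and 1153 CPM). With edgeR's exact test the calls of Mir222, Mir221 and Mir10a were lost at 0.1, and those of Mir21a (adjusted p = 0.669), Mir125a (0.972) and Mir132 (1) were lost at 0.4.

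**Figure D4:**
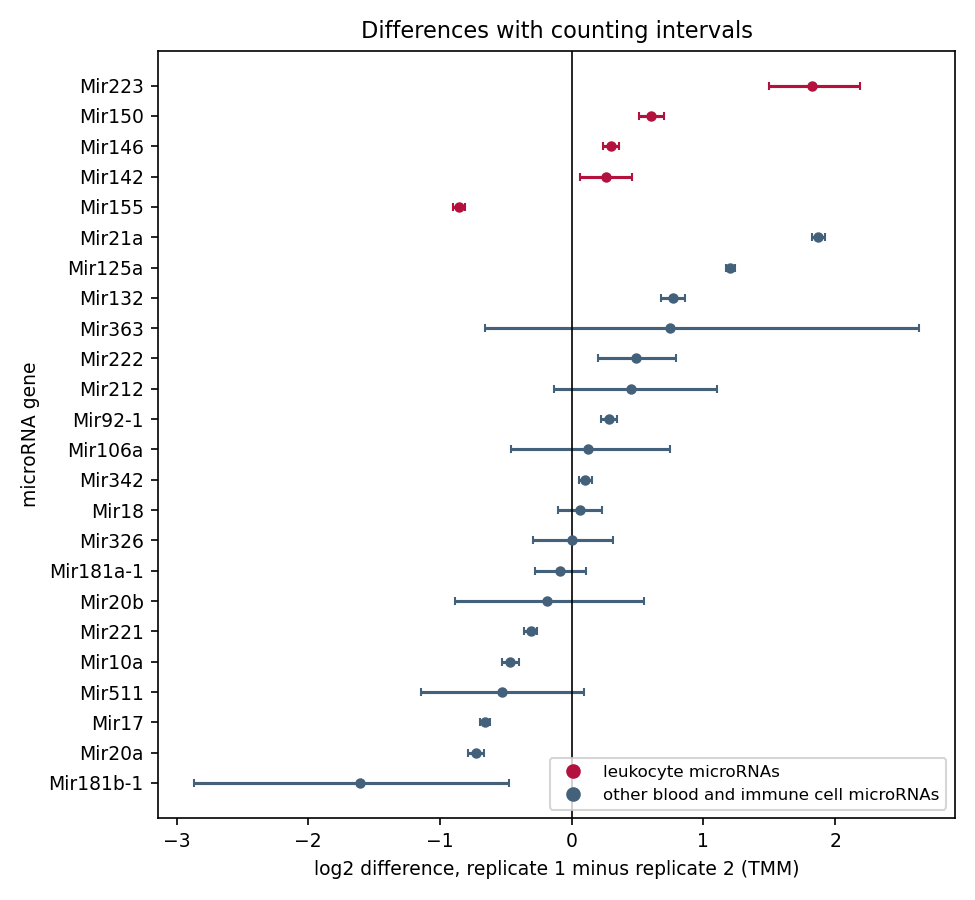
Log2 differences between the libraries (replicate 1 minus replicate 2, TMM-scaled) with 95% counting intervals for the 5 leukocyte genes in red and the 19 tested genes of the second list in blue. Mir223 at 1.83 and Mir21a at 1.87 are the highest of each, and Mir155 at -0.85 is the only leukocyte gene below 0.

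The miR-17-92 cluster acts in lymphocyte growth and is also expressed in many dividing cells. Differences between its members were not tested. Mir17 was 1.58-fold lower in replicate 1 (2288 and 3294 CPM) and Mir20a was 1.66-fold lower (828 and 1249 CPM). Mir92-1 was 1.22-fold higher (1409 and 1054 CPM), a call lost with edgeR's exact test at 0.1, and it shares 22 bases with Mir92-2. With edgeR's exact test at 0.4, Mir17, Mir20a and Mir92-1 were not called. Mir18 stood at 167 and 145 CPM and was not called with TMM. Mir19a had 4 reads in replicate 1 and 0 in replicate 2, and Mir19b-1, which shares 25 bases with Mir19b-2, had 1 and 5. Of its paralog cluster on the X chromosome, Mir106a (75 and 36 reads), Mir20b (47 and 28) and Mir363 (17 and 5) were not called.

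Mir181a-1, which tunes T cell receptor signalling, stood at 119 and 115 CPM, and its log2 difference of -0.09 was not called and was 0.05 with total counts. It shares 28 bases with Mir181a-2. Mir181b-1 had 11 and 18 reads and was called lower in replicate 1 (log2 -1.61, -2.86 to -0.48, binomial adjusted p = 0.00953), and it shares 26 bases with Mir181b-2. The counts of both are uncertain, as reads with several mapping places are left out. Mir326, studied in helper T cells, had 265 and 139 reads, or 50.6 and 45.9 CPM, and was not called.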

How the data were processed

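The authors deposited, for each of the 2 heart libraries, whole-number read counts per microRNA gene without normalization. The deposited readme names mm10 and GENCODE M21. The tool used for trimming, alignment and counting is not given in the sources used here. From their values, the 3 columns hold unstranded, own-strand and opposite-strand reads, and the own-strand column was used. The first 4 lines are totals without a gene and entered no library size or test: unmapped reads were 13.4% in replicate 1 and 13.3% in replicate 2, multiply mapped reads 41.1% and 39.9%, and reads outside genes 4.33% and 4.30%, with 0 ambiguous on the own strand.

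CPM was taken over all gene rows. Setting 1 library against the other leaves no residual degrees of freedom for edgeR's quasi-likelihood test, so libraries were compared by a two-sided exact binomial test (the smaller tail doubled) for genes whose reads summed to 10 or more. TMM factors (edgeR 4.0.16, R 4.3.3) came from the same genes and moved log2 differences by -0.13 against total counts. The Benjamini-Hochberg adjusted threshold was 0.05, and 0.5 reads were added before taking log2. The p-values rest on counting error and measure only these 2 libraries. On simulated data over 432 genes with counting error only, the binomial test called 57.1% of genes changed 1.5-fold, 68.2% at 2-fold, 94.9% at 4-fold and 1.27% of unchanged genes. The simulation was scaled by total counts and not by TMM, and it held no spread between samples. These rates thus need not hold for the 2 heart libraries.

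Named were all 6 members, Mir142b, the nearest gene to each detected member, all detected genes of the second list, and context genes for red, endothelial, smooth and heart muscle cells. Genes of the second list with under 10 reads in a library and the Mir1a and Mir133a genes are named too, a choice made after seeing their values. The members and lists were chosen with earlier results of these data known. Shared stretches were searched among RefSeq hairpins on GRCm38.p6, with 20 bases marking a gene as uncertain. Alternatives were total counts, DESeq2 1.42.0 size factors, unstranded counts, other read minimums and denominators, and edgeR's exact test at fixed spreads. Python 3.11.15 with numpy 2.4.6, pandas 2.3.3, scipy 1.17.1 and matplotlib 3.10.9 was used.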

Additional observations from a re-analysis of the deposited data

Results flagged for a closer look

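The opposite-strand column, which no comparison used, held 698 reads for Mir142b in replicate 1 and 307 in replicate 2, above the limit of 3 reads that a count of 0 allows. These are the same numbers as the own-strand reads of Mir142, which overlaps Mir142b on the other strand.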

How the results depend on the processing

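The binomial test called 238 of 430 genes, 240 of 430 with total counts and 238 of 430 with DESeq2 size factors. It called 216 of 403 genes with unstranded counts. The share called depended on the read minimum, with 234 of 723 genes called without a filter on low counts and 202 of 263 at 100 or more reads in sum. edgeR's exact test called 123 at a biological coefficient of variation of 0.1 and 5 at 0.4. The summed share of the 6 genes, 0.4005%, was 0.532% with unstranded counts, where fewer reads were counted in all and Mir142 had 0. It was 0.168% of all reads in the table and 0.491% without the most abundant gene, changes that follow from the denominators. With 1 library alone it was 0.386% or 0.415%, and the reads of Mir155 per read of Mir142 were 11.9 or 25.8. That ratio has no value with unstranded counts, and no ratio to Mir146b was formed at its 4 and 1 reads. Of 34 log2 differences of members under other settings, 27 kept direction and side of the threshold, 7 lost the call, all with edgeR's exact test, and 0 reversed. With edgeR's exact test the log2 differences of the main setting were kept, so only the call could change. Each other setting moved all its members by nearly the same amount. That amount was below the smallest member difference, 0.26 for Mir142, so the absence of reversals follows from how the settings work. No paired analysis was possible because there is 1 group. Depth limits Mir146b and, in replicate 2, Mir223 with 82 reads.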
